A study of Homo sapiens with 6 samples.

Results

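MALAT1 and NEAT1 are 2 long noncoding RNAs of the cell nucleus, taken here out of 58735 genes in a count table from Huh7, an established line of human liver cancer cells. The pair was chosen by name, with their lower counts under the ITGB5 hairpin already known, so the difference between the groups is given for them as a description and is not tested. Cells carried a short hairpin RNA against ITGB5, the integrin beta 5 subunit (shITGB5, 3 libraries), or a control hairpin (shcontrol, 3 libraries), and all were grown in the same medium. Nothing in the labels says whether the libraries of a group were separate cultures, and p-values therefore reflect only how these libraries scatter, which may be technical scatter. How many hairpins or clones were used is not given in the sources read here.

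MALAT1 is an abundant RNA that collects in nuclear speckles, the bodies where splicing factors are stored. NEAT1 is the scaffold of paraspeckles, a neighbouring kind of nuclear body that holds proteins such as NONO and SFPQ and some retained RNAs. Both genes lie side by side, neither encodes a protein, and both long transcripts end without a normal poly(A) tail: RNase P cuts off a small tRNA-like RNA, and the new end is protected by a triple helix of U-rich stretches and a genome-encoded run of A. NEAT1 is also made as a short form that ends at an ordinary poly(A) site near its start. MALAT1 is widely studied in liver cancer, where it is commonly abundant.

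Both genes are lincRNA genes on the plus strand of chromosome 11 (GRCh38). NEAT1 (ENSG00000245532) spans chr11:65422774-65445540 and MALAT1 (ENSG00000251562) spans chr11:65497688-65506516. The long NEAT1 transcript is 1 unspliced exon of 22743 bases with a GC content of 44.1%, and the longest MALAT1 transcript is 1 exon of 8708 bases with 40.3%. The short NEAT1 transcript NEAT1-201 is spliced, spans 3684 bases of the same start and has a GC content of 47.6%. Counts per gene cannot tell the short from the long NEAT1 form.

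The shared structure at the 3′ ends is shown first, because it is what the sequences of the 2 RNAs have most clearly in common. These are the last 100 bases of each RNA before its tRNA-like end, 5′ to 3′ on the plus strand, from the GENCODE 29 annotation and transcripts, MALAT1 at chr11:65506017-65506116 and NEAT1 at chr11:65445441-65445540. Capitals mark every run of at least 8 bases that both windows hold.
MALAT1: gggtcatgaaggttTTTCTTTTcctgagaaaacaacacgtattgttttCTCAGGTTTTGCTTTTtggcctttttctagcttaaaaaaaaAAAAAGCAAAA
NEAT1: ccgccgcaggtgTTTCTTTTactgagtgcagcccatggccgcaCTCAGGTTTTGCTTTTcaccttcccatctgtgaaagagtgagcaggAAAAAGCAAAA

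The same 3 runs stood in the same order in both RNAs: TTTCTTTT, then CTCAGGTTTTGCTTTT, then AAAAAGCAAAA at the very end. The first 2 are the U-rich stretches and the last is the A-rich tract of the triple helix. Both windows matched at 69 of 109 aligned positions (63.3%). The runs were looked for in the last 100 bases of the longest annotated transcript, sense strand, of 14985 long noncoding genes of the table. There, TTTCTTTT was held by 1.39% of the genes, AAAAAGCAAAA by 0.0400% (6 genes), and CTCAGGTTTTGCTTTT by 1 gene, which was NEAT1. MALAT1 is not counted there because its annotated transcript runs past the cut. The first run does not overlap the others. These matches are a description of letters.

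Directly after these windows come the tRNA-like RNAs that RNase P and RNase Z release, annotated as small RNA genes of their own at chr11:65506117-65506173 and chr11:65445541-65445598. They are shown because a library that held them could show the processed end separately, if the counting kept reads of overlapping genes apart.
MALAT1 tRNA-like RNA: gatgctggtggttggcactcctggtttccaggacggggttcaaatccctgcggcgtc
NEAT1 tRNA-like RNA: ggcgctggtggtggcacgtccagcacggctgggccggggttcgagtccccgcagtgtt

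They are 57 and 58 bases long and were identical at 40 of 59 aligned positions (67.8%). Both were listed at 0 counts in all 6 libraries. So were the other 6 annotated genes that overlap either RNA, which include the microRNA MIR612 in NEAT1 and AP000769.2, an RNA gene on the opposite strand within MALAT1. No gene that overlaps MALAT1 or NEAT1 therefore carried counts in this table. By counting error alone, a count of 0 still allows up to 0.190 CPM in the shallowest library. RF01955, RF01956 and RF01957 lie within NEAT1 on the same strand, and they held 0 counts where NEAT1 held 5091 to 6364. How reads shared by overlapping genes were counted is not stated and was not tested. For genes that overlap MALAT1 or NEAT1, the 0 counts thus set no upper limit on the level.

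The libraries held 15777922 to 18011313 counts each, with TMM factors of 0.998 to 1.003. ITGB5, the targeted gene, fell from 211.8 ± 6.35 to 176.1 ± 4.30 in CPM units (SD over 3 libraries each), or -0.27 on the log2 scale (edgeR, Benjamini-Hochberg adjusted p = 2.13e-09). CPM is a count divided by the scaled library total and multiplied by 1e6. Mitochondrial genes took 3.24% to 3.29% of the counts with the ITGB5 hairpin and 3.47% to 3.54% in the controls, and 9 of 13 mitochondrial transcripts fell, against 6.74% of all 16577 genes tested. All 10 hepatocyte markers listed to check the line were detected, led by ALB, 8 rose, against 8.31% of all genes tested, and their summed level was 6913 to 7071 CPM (control) and 7830 to 8018 CPM (ITGB5 hairpin). Of 13 fibroblast, endothelial and blood markers, 6 had enough counts to be tested, and the summed level of all 13 was 294.3 to 308.8 CPM (control) and 329.6 to 339.0 CPM (ITGB5 hairpin). COL1A2 (130.04 and 137.22 CPM), COL1A1 (18.4 and 18.5 CPM) and the endothelial marker PECAM1 (4.65 and 4.77 CPM) were present in all libraries and did not pass. HBA1 was at 0 in all libraries, VWF and CDH5 at 0 in the controls and at up to 3 counts with the hairpin. LUM, a matrix proteoglycan, was the 1 of the 6 that rose (0.22). The part of these shifts in the results below was not tested.

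MALAT1 was at less than its control level in every library with the ITGB5 hairpin. Its counts were 6368, 6051 and 6038 in control replicates 1, 2 and 3, and 3079, 2774 and 3223 in ITGB5 hairpin replicates 1, 2 and 3. Scaled to library size, that was 365.1, 360.9 and 382.3 CPM in the controls against 171.4, 167.8 and 183.1 CPM with the hairpin. All 3 control libraries stood above all 3 hairpin libraries. The pair was chosen for its lower counts, so this is a description, and the share of all genes that separate likewise is not given. The group means were 369.4 CPM ± 11.3 and 174.1 CPM ± 7.97 (SD, n = 3 each). The fitted change was -52.8%, which is -1.08 on the log2 scale (SE 0.031). MALAT1 took 0.0360% to 0.0383% of all counts in the controls and 0.0167% to 0.0182% with the hairpin. The exact 95% counting intervals of these shares ran from 0.0351% to 0.0392% over the controls and from 0.0161% to 0.0189% over the hairpin libraries, and cover counting error only.

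NEAT1 was also lower with the ITGB5 hairpin, but by much less. Its counts were 6364, 5921 and 5552 in the control libraries and 5212, 5091 and 5217 in the hairpin libraries, in replicate order. That was 364.9, 353.2 and 351.5 CPM against 290.2, 308.0 and 296.4 CPM. The highest hairpin library (replicate 2) stayed below the lowest control library (replicate 3), which is again a description only. The means were 356.5 CPM ± 7.28 and 298.2 CPM ± 9.06 (SD, n = 3 each). The fitted change was -16.4%, or -0.26 on the log2 scale (SE 0.028). NEAT1 took 0.0352% to 0.0364% of all counts in the controls and 0.0289% to 0.0307% with the hairpin.

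**Figure D1:**
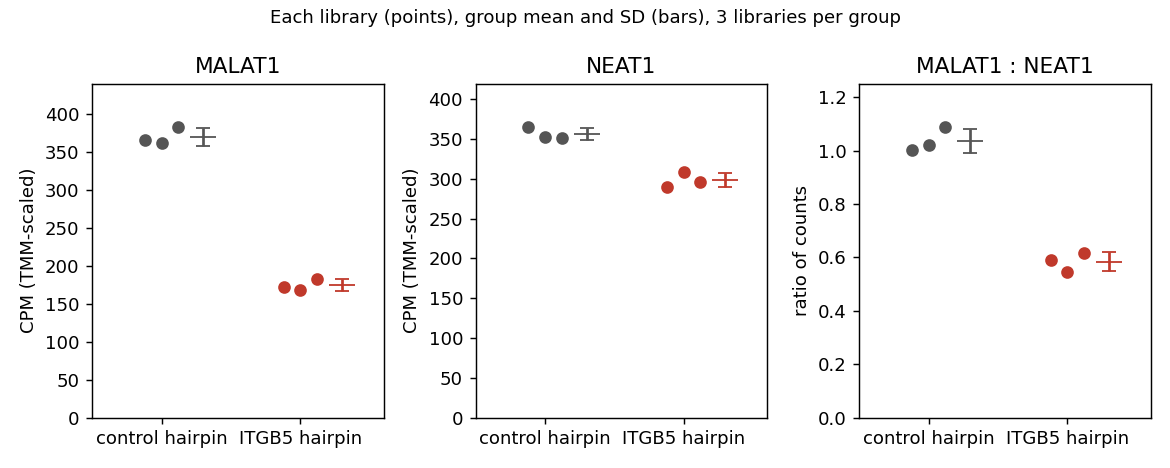
Level of MALAT1 and of NEAT1 in CPM (left and middle panels) and the ratio of their counts (right panel) in each library, with the group mean and SD beside the points, 3 libraries per group. Mean MALAT1 was 369.4 and 174.1 CPM and mean NEAT1 356.5 and 298.2 CPM, and the ratio was 1.04 in the controls and 0.584 with the hairpin.

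The 2 RNAs were almost equal in counts in the controls and clearly unequal with the ITGB5 hairpin. Control replicates 1, 2 and 3 held 1.001, 1.02 and 1.09 MALAT1 counts per NEAT1 count. The hairpin libraries held 0.591, 0.545 and 0.618. The mean ratio was 1.04 ± 0.045 in the controls and 0.584 ± 0.037 with the hairpin (SD, n = 3 each). Both RNAs are counted in the same library, so this ratio does not depend on how the libraries are scaled.

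Per length, MALAT1 was the more abundant RNA if NEAT1 counts are spread over its whole gene. On the FPKM scale, which divides CPM by gene length in kilobases (8.829 for MALAT1 and 22.767 for NEAT1), MALAT1 lay at 41.8 ± 1.28 in the controls and 19.7 ± 0.903 with the hairpin. NEAT1 lay at 15.7 ± 0.320 and 13.1 ± 0.398 (SD, n = 3 each). The per-kilobase ratio of MALAT1 to NEAT1 was 2.67 ± 0.117 in the controls and 1.51 ± 0.095 with the hairpin. Had all NEAT1 counts come from the short form, whose spliced transcript has 3441 bases, the same ratio would be 0.404 and 0.228, so the order of the levels per length rests on which NEAT1 form gave the reads. The drop in the ratio is the same share under either length.

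Among long noncoding RNAs, both stood near the top in level, and MALAT1 also near the top in the size of its decrease. Of 2032 long noncoding genes tested, NEAT1 ranked 2 and MALAT1 3 by mean CPM, and 25 and 9 per length. By log2 change from the most negative, MALAT1 ranked 23 and NEAT1 478 of these 2032. The genes with a larger fall than MALAT1 were mostly scarce: among the 1371 with a mean of at least 1 CPM, MALAT1 ranked 4 and NEAT1 277. Among all 2444 genes with a mean of at least 100 CPM, coding genes included, MALAT1 ranked 2 and NEAT1 51. These ranks describe the pair and were not tested.

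**Figure D2:**
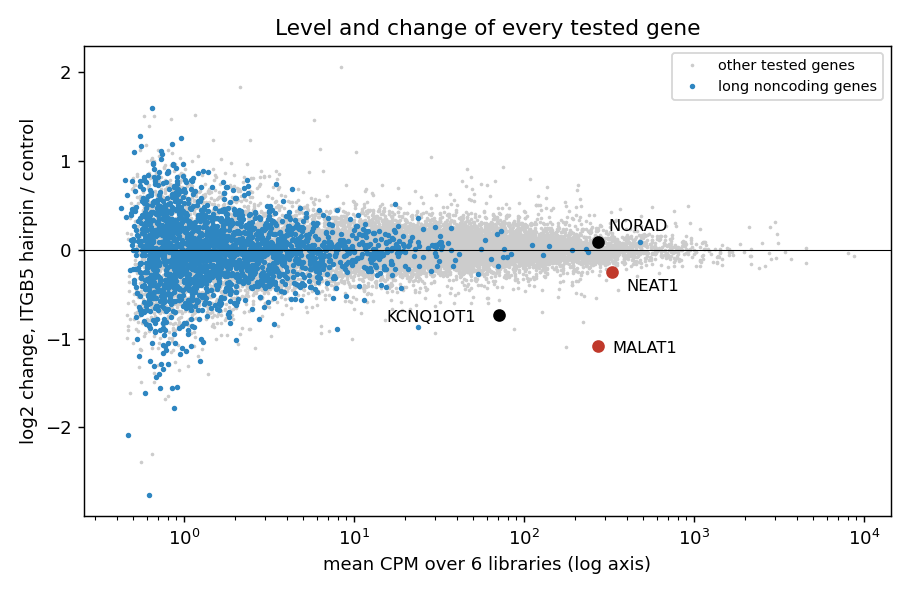
Log2 change (ITGB5 hairpin over control, vertical axis) against mean CPM over 6 libraries (horizontal log axis) for each of the 16577 genes tested, with the 2032 long noncoding genes in blue, MALAT1 and NEAT1 in red, and KCNQ1OT1 and NORAD in black. MALAT1 lies at -1.08, where 1 of the 2444 genes above 100 CPM lies lower, and NEAT1 lies at -0.26.

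Replicate libraries of a group scattered somewhat more for both RNAs, MALAT1 above all, than for the median gene of like abundance. The within-group SD of log2 CPM was 0.056 for MALAT1 and 0.037 for NEAT1. Its median was 0.034 over 837 genes within 1.5-fold of the MALAT1 level, and 0.032 over 640 genes within 1.5-fold of the NEAT1 level. Genes in these bands had a median log2 change of 0.00 and -0.01.

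The pair made up a large part of the net shift in long noncoding RNA as a class. As it was chosen for its lower counts, this is a description. Long noncoding genes took 1.07% to 1.08% of all counts in the controls and 1.02% to 1.03% with the ITGB5 hairpin. MALAT1 and NEAT1 together held 6.64% to 6.83% of that class in the controls and 4.53% to 4.64% with the hairpin. Without the pair, the class took 0.995% to 1.002% in the controls and 0.969% to 0.986% with the hairpin. Of the net mean difference of 0.0478 percentage points, 0.0254 (53.2%) came from the counts of these 2 genes. Rises and falls of other long noncoding genes offset each other in that net value.

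In the fit over all genes, 15.1% of genes passed the threshold, 8.31% as rises and 6.74% as falls, and every count of changed genes is read against these shares. Of the 2032 long noncoding genes, 20 rose, 46 fell (the pair among them) and 1966 did not pass (edgeR, adjusted p under 0.05), with a median log2 change of -0.02 against 0.00 for all genes. DESeq2 called 23 of them, 8 as rises and 15 as falls. Of the 37 tested long noncoding genes whose longest transcript has at least 8000 bases, a group formed after the values were seen, 5 fell and 1 rose, the pair included, with a median of -0.12. Without MALAT1 and NEAT1, 3 of 35 fell, 1 rose and 25 had a log2 change below 0, with a median of -0.10. Of the 1995 shorter ones, 1052 lay below 0. HELLPAR, a very long intergenic RNA of 205.012 kilobases, fell from 10.3 CPM ± 1.26 to 5.55 CPM ± 0.180 (log2 change -0.89, edgeR adjusted p = 9.10e-07). PAX8-AS1 fell from 75.0 CPM ± 2.57 to 66.0 CPM ± 2.46 (-0.18, edgeR adjusted p = 0.00354). XIST, which coats a silenced X chromosome, was the 1 that rose. In bulk RNA, fewer cells with an RNA and less of it per cell cannot be told apart, which holds for MALAT1 and NEAT1 too.

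KCNQ1OT1 was lower with the ITGB5 hairpin too. Of 23 listed other long noncoding RNAs described as nuclear, XIST not among them, 15 could be tested. Of these, 1 fell (KCNQ1OT1), none rose and 14 did not pass, with a median log2 change of -0.01. The share that passed was 6.67%, against 3.25% of long noncoding genes tested and 15.1% of all genes. KCNQ1OT1 silences genes of an imprinted cluster on the short arm of the same chromosome. It lay at 88.5, 86.7 and 90.0 CPM in the controls and at 50.3, 54.1 and 54.7 CPM with the hairpin. Every control library was above every hairpin library (log2 change -0.74, SE 0.048, edgeR adjusted p = 2.80e-19). TUG1, a nuclear and cytoplasmic RNA with about the abundance of MALAT1 and named after its values were seen, had means of 229.5 ± 3.52 (control) and 230.6 ± 1.6 CPM (ITGB5 hairpin; edgeR adjusted p = 0.922).

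Long noncoding RNAs that work in or pass through the cytoplasm gave 2 small rises among 10 tested and no fall (20% passed, against 15.1% of all genes). Of all long noncoding genes tested 3.25% passed, and of the 10 with a mean of at least 100 CPM, MALAT1 and NEAT1 among them, 40%. ZFAS1, a host of small nucleolar RNAs, rose from 27.1 CPM ± 1.52 to 32.3 CPM ± 1.26 (log2 change 0.25, edgeR adjusted p = 0.00905). Its opposite-strand neighbour ZNFX1 carries 295% of its counts, and its call was lost without control replicate 3 or hairpin replicate 3 (edgeR adjusted p = 0.0744 and 0.0750). NORAD, which binds Pumilio proteins, rose by 0.09 (edgeR adjusted p = 0.0350). That call was lost without control replicate 1 or 3 or hairpin replicate 1 or 3 (edgeR adjusted p of 0.111 to 0.235), with DESeq2 (0.0630) and with the replicate block (0.0643).

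RNAs that lack a poly(A) tail were mostly at or near 0 in these libraries. Of 30 structured RNAs without a tail, 14 were at 0 in every library and 3 could be tested, and none of these passed with edgeR. The 7SK RNA RN7SK, the RNase P RNA RPPH1 and the RNase MRP RNA RMRP, named after their values were seen, were all listed at 0. RN7SL2, an RNA of the signal recognition particle, lay at 30.7, 37.2 and 34.8 CPM in the controls and at 13.9, 54.2 and 36.8 CPM with the hairpin, so the hairpin libraries lay on both sides of the controls. It passed as higher without hairpin replicate 1 (log2 change 0.40, edgeR adjusted p = 0.000330) and as lower without hairpin replicate 2 (-0.44, 0.00836). RN7SL3 lay at 1.28 CPM ± 0.512 and 1.34 CPM ± 0.722. Of 18 replication-dependent histone genes, whose mRNAs typically end in a stem-loop, 9 could be tested, 2 fell and none rose (22.2% passed, against 15.1% of all genes). HIST1H2BK fell from 39.0 CPM ± 1.93 to 31.6 CPM ± 0.711 (log2 change -0.30, edgeR adjusted p = 0.000510) and HIST1H2AC from 25.6 CPM ± 0.142 to 21.2 CPM ± 1.61 (-0.27, edgeR adjusted p = 0.0136, or 0.119 without hairpin replicate 1). Histone genes have near-identical copies, so their counts are uncertain. Counts per gene do not show which mRNAs of these genes carry a tail, so these falls are not read as falls of RNAs without one. The part of tail-dependent capture in the MALAT1 and NEAT1 values was not tested.

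Some proteins that sit in paraspeckles with NEAT1 shifted by small amounts. Of 32 paraspeckle proteins, 3 rose, 7 fell and 22 did not pass, with a median log2 change of -0.02 against 0.00 for all genes. The share that passed was 31.25%, against 15.1% of all genes and 17.8% of protein-coding genes tested. HNRNPH3, a nuclear RNA-binding protein of the bodies, fell from 206.8 CPM ± 0.151 to 181.4 CPM ± 2.91 (log2 change -0.19, edgeR adjusted p = 4.31e-06). TARDBP (TDP-43, -0.16) and the splicing regulator SRSF10 (-0.15) fell too, and CIRBP, a cold-inducible RNA-binding protein, rose from 73.5 CPM ± 3.82 to 88.6 CPM ± 2.92 (0.27, edgeR adjusted p = 6.63e-06). Of the core DBHS proteins, named here because NEAT1 binds them and after their values were seen, NONO fell by 0.10 on the log2 scale (edgeR adjusted p = 0.0168). SFPQ changed by -0.04 (edgeR adjusted p = 0.341) and PSPC1 by -0.10 (edgeR adjusted p = 0.0526), and neither passed. The changes of all 3 were smaller than that of NEAT1.

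Nuclear speckle and SR splicing proteins, which share the bodies where MALAT1 collects, passed about as often as all genes: of 33 tested, 3 rose, 2 fell and 28 did not pass (15.2% against 15.1%), with a median of 0.00. U2AF1, the small U2AF subunit that reads the 3′ splice site, had by far the largest value (2.05), and 1 library decides it. It had 4.24, 2.56 and 2.91 CPM in the controls and 5.74, 4.72 and 29.8 CPM with the hairpin. Without hairpin replicate 3 its log2 change was 0.69 (edgeR adjusted p = 0.0205), and neither DESeq2 (adjusted p = 0.0849) nor a robust edgeR fit (adjusted p = 0.330) called it. Its near-identical copy U2AF1L5 had 20.6, 8.41 and 6.65 CPM with the hairpin and 7.79 to 8.77 CPM in the controls. The sum of both copies does not depend on how reads are split between them. It was 13.0, 11.3 and 10.7 CPM in the controls and 26.3, 13.1 and 36.5 CPM with the hairpin, so the hairpin libraries differ widely in the sum too. How the counting divided reads between the copies was not tested, and the U2AF1 value is uncertain. RNPS1 (0.11), PNN (0.09) and TRA2A (-0.13) passed with small changes. RNPS1 missed the threshold without control replicate 1 or 2 or hairpin replicate 3 (edgeR adjusted p of up to 0.126). PNN missed it without any 1 library but hairpin replicate 2 (up to 0.315), with DESeq2 and with RLE factors, and TRA2A without control replicate 1 or 3 or hairpin replicate 1 or 2 (up to 0.148) and with DESeq2. In all, 2 or 3 of the list passed in place of 5 with DESeq2, with the replicate block, or without any 1 library but hairpin replicate 2.

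**Figure D3:**
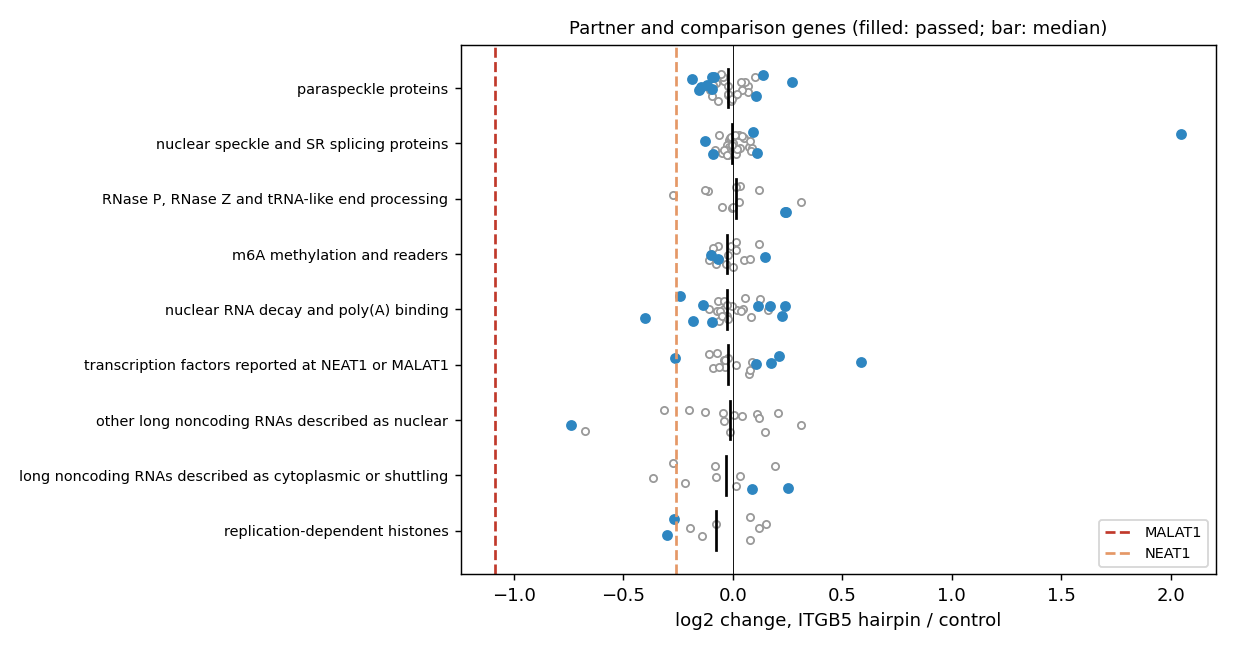
Log2 change (ITGB5 hairpin over control) of each tested member of 9 gene lists, with filled points for genes that passed, a bar at each list's median, and dashed lines at MALAT1 and NEAT1. List medians lie between -0.08 and 0.02, KCNQ1OT1 (-0.74) is the 1 filled point among the listed nuclear RNAs, and the point at 2.05 is U2AF1.

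Of 13 subunits of RNase P and enzymes that process the tRNA-like 3′ ends, 2 rose, none fell and 11 did not pass (15.4% passed, against 15.1% of all genes), with a median of 0.02. POP7, an RNase P subunit, rose from 58.5 CPM ± 2.04 to 69.3 CPM ± 0.835 (log2 change 0.24, edgeR adjusted p = 0.000144). RPP25, another subunit, rose by 0.24 (edgeR adjusted p = 0.0455), which was lost without any 1 of the 6 libraries (0.0598 to 0.233) and with DESeq2 (0.0876), and SCAMP5 on the opposite strand carries 141% of its counts. ELAC2, the RNase Z that trims the tRNA-like RNA and named after its values were seen, was at 164.7 ± 6.10 and 166.4 ± 3.64 CPM (edgeR adjusted p = 0.842).

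MALAT1 is heavily marked with N6-methyladenosine, and METTL16 binds its triple helix. Of 18 writers, erasers and readers of the mark, 1 rose, 2 fell and 15 did not pass (16.7% passed, against 15.1% of all genes), with a median of -0.03. YTHDF2, a reader that directs RNA to decay, rose from 118.4 CPM ± 3.70 to 130.9 CPM ± 2.83 (0.14, edgeR adjusted p = 0.00327, or 0.0501 without control replicate 3). HNRNPA2B1 (-0.10) and HNRNPC (-0.07), nuclear proteins that bind methylated or remodelled RNA, fell. HNRNPC missed the threshold without control replicate 1 or 2 or hairpin replicate 1 or 2 (edgeR adjusted p of 0.0801 to 0.231). METTL16, named after its values were seen, lay at 46.9 CPM ± 1.21 and 50.9 CPM ± 0.668 and did not pass (edgeR adjusted p = 0.158).

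Genes of nuclear RNA decay and poly(A) binding moved in both directions. Of 28, 4 rose, 5 fell and 19 did not pass, with a median of -0.03. The share that passed was 32.1%, against 15.1% of all genes and 17.8% of protein-coding genes tested. TENT4B, a noncanonical poly(A) polymerase that tags nuclear RNA for decay, fell from 50.4 CPM ± 2.84 to 38.2 CPM ± 1.77 (log2 change -0.40, edgeR adjusted p = 5.57e-07). EXOSC9, a core exosome subunit, fell by 0.24 on the log2 scale (edgeR adjusted p = 0.00213), was lost without control replicate 1 or hairpin replicate 3 (0.0524 and 0.0519), and overlaps CCNA2, which carries 297% of its counts. RBM7, a subunit of the nuclear exosome targeting complex, rose by 0.24 and TENT4A, the paralog of TENT4B, by 0.22. RBM7 missed the threshold without control replicate 1, 2 or 3 or hairpin replicate 1 (edgeR adjusted p of 0.0531 to 0.337). TENT4A did so without control replicate 1 or hairpin replicate 1 or 3 (0.0565 to 0.189). RBM7 was also lost with DESeq2 (0.0920). Without control replicate 1 or 2 or hairpin replicate 1 or 3, 3 to 5 genes of this list passed in place of 9.

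Among 17 transcription factors reported at either gene, 4 rose, 1 fell and 12 did not pass, with a median of -0.02. The share that passed was 29.4%, against 15.1% of all genes and 17.8% of protein-coding genes tested. HIF1A, the oxygen-regulated factor, fell from 678.3 CPM ± 11.3 to 564.1 CPM ± 3.19 (log2 change -0.27, edgeR adjusted p = 4.90e-14). Its paralog EPAS1, the HIF-2 alpha factor known to activate NEAT1, rose by 0.11 and is named as the remaining gene that passed. EGR1 (0.58), MYC (0.21) and YAP1 (0.18) rose. Each of these 3 was lost without control replicate 1 (edgeR adjusted p = 0.0577, 0.131 and 0.0739). EGR1 was also lost without hairpin replicate 1 (0.0806) and MYC without hairpin replicate 2 (0.0982), and without control replicate 1, 3 factors passed in place of 5. HSF1, a known activator of NEAT1 and named after its values were seen, did not pass (-0.02, edgeR adjusted p = 0.830).

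Most genes around the pair did not pass. Of 90 annotated genes within 500 kilobases of either RNA, 51 could be tested, of which 5 rose, 2 fell and 44 did not pass (13.7% against 15.1% of all genes), with a median log2 change of 0.01. Within 100 kilobases, 1 of 14 tested passed. That gene was SLC25A45, a mitochondrial carrier gene 39.1 kilobases before NEAT1, at 13.6 CPM ± 0.472 and 10.9 CPM ± 0.337 (-0.32, edgeR adjusted p = 0.0335). It was lost without control replicate 2 or 3 or hairpin replicate 1 or 2 (0.0758 to 0.101), with DESeq2 (0.0636) and with no filter on low counts (0.0808). FRMD8, 9.249 kilobases before NEAT1, was at 54.1 ± 4.40 and 53.8 ± 2.62 CPM (edgeR adjusted p = 0.949). LTBP3, which stores latent TGF-beta and lies 32.3 kilobases after MALAT1, had 89.7 CPM ± 6.50 and 94.3 CPM ± 6.66 (edgeR adjusted p = 0.350).

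**Figure D4:**
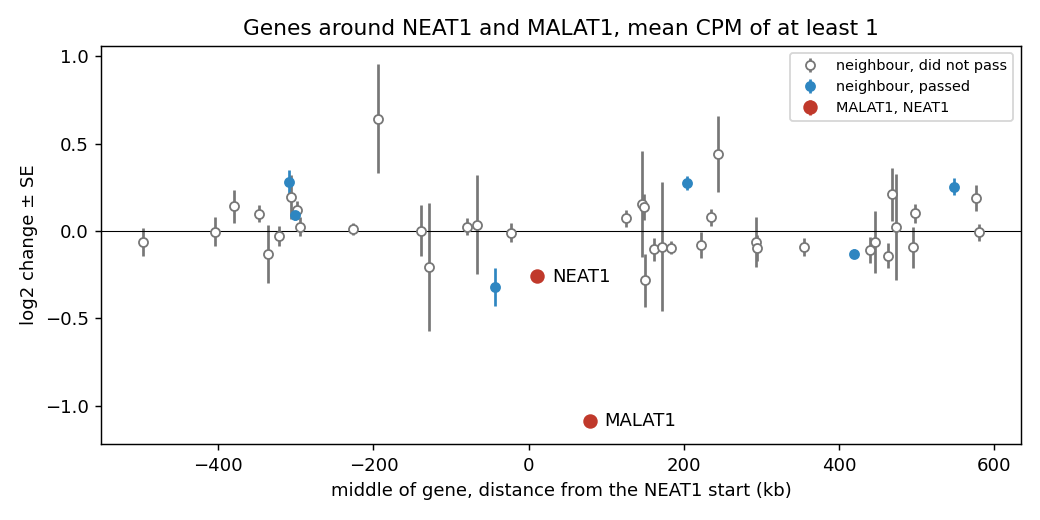
Log2 change with its SE of tested genes with a mean of at least 1 CPM around the pair (those reported here), against the distance of the middle of each gene from the NEAT1 start in kilobases. MALAT1 (-1.08) lies lowest, and SLC25A45 (-0.32) is the nearest neighbour that passed.

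Other genes tested within 100 kilobases did not pass in the main fit. AP000769.1, a pseudogene between NEAT1 and MALAT1, lay at 0.999 CPM ± 0.354 and 0.860 CPM ± 0.181. MAP3K11, a kinase of the JNK pathway, had a log2 change of -0.10 (edgeR adjusted p = 0.0650) and passed without hairpin replicate 2 (0.0284). DPF2 (0.03), TIGD3 (0.04), AP000944.2 (-0.21), SSSCA1 (0.14), SSSCA1-AS1 (0.16), FAM89B (-0.28), EHBP1L1 (-0.10) and KCNK7 (-0.09) did not pass. SSSCA1 and FAM89B overlap each other, and AP000944.2 overlaps POLA2.

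The genes whose pattern over the 6 libraries was most like MALAT1 were protein-coding genes that fell by a similar amount. Likeness was the Euclidean distance between log2 CPM profiles, each centred on its own mean, among 11504 genes. It depends mostly on the size of the group difference, so a similar fall is part of how these genes were picked. ARPC5, part of the complex that starts branched actin filaments, was nearest (distance 0.115), followed by B3GNT2 (0.210), EVA1B (0.229), LRRFIP1 (0.277) and SERTAD4 (0.331). ARPC5 had a mean of 239.4 CPM ± 2.65 with the control and 111.8 CPM ± 2.09 with the ITGB5 hairpin (log2 change -1.10). For NEAT1, many genes shared its modest fall, and distances were shorter: MADD (0.049), TMEM260 (0.050), FBLIM1 (0.051), MYDGF (0.056) and NOC2L (0.056). MADD, a regulator of Rab GTPases, lay at 100.8 CPM ± 1.40 and 84.8 CPM ± 1.25 (-0.25). EVA1B, SERTAD4, MYDGF and NOC2L overlap other counted genes on the opposite strand. The 5 nearest genes of MALAT1 and the 5 of NEAT1 had none in common, which the unlike falls of the 2 RNAs fixed in advance.

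Words of 7 bases that earlier work on these same counts had singled out in coding mRNAs were looked up in both RNAs. AGACCAA and its shifted form GACCAAA had been common in mRNAs that fell, and TCGGAGA with its shifted form CGGAGAA in mRNAs that rose. MALAT1 holds neither AGACCAA nor GACCAAA on its sense strand, which was the strand searched, and holds TCGGAGA once, at position 435 of its 8708-base transcript (chr11:65498196-65498202). NEAT1 holds AGACCAA at positions 496 and 12326 of the long transcript, the second overlapping GACCAAA, and TCGGAGA, overlapping CGGAGAA, at position 1724. Sites are shown with 10 bases on either side and the word in capitals.
MALAT1 at 435: ctctgtgtctTCGGAGAcaaagccatt
NEAT1 at 496: ctttttttccAGACCAAgggctgtgaa
NEAT1 at 1724: tgtgcgtttcTCGGAGAagttcttagc
NEAT1 at 12326: tgtcctgaagAGACCAAaattatgcag

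So MALAT1, with the larger decrease, lacks the word, and NEAT1, with the smaller, holds it, once within the span of the short form. Among 1237 tested genes whose longest transcript has at least 8000 bases, 59.1% hold AGACCAA and 21.3% hold TCGGAGA. The nearest genes in pattern to MALAT1 differ from it here. ARPC5, B3GNT2, LRRFIP1 and SERTAD4 each hold AGACCAA at least once in their longest transcript, and EVA1B holds GACCAAA. LRRFIP1 also holds TCGGAGA and CGGAGAA. These genes were picked for a fall like that of MALAT1, and AGACCAA and GACCAAA came from mRNAs that fell in the same counts. Their holding these words is therefore a description and no separate result. Their longest transcripts have 1054 to 7209 bases, so the 59.1% of longer ones is no base rate for them. KCNQ1OT1 holds AGACCAA 17 times in 91667 bases. It was named because it fell, so this too is a description. Of the 37 long noncoding genes tested with at least 8000 bases, 78.4% hold AGACCAA. Of the 2032 long noncoding genes tested, 303 hold AGACCAA, with a median log2 change of -0.07 against -0.01 for the others. Among those of at least 8000 bases the medians were -0.10 for 29 genes with it and -0.13 for 8 without. Among all 1237 tested genes of that length, coding genes included, they were -0.03 for 731 with it and -0.01 for the rest. For TCGGAGA, from mRNAs that rose, the medians with and without it were -0.21 and -0.08 among long noncoding genes of that length. Among all 1237 they were 0.02 and -0.03. Both words were singled out in coding mRNAs of these same counts, so comparisons that include coding genes are a description and no separate result. A word is a match of letters, and nothing follows from it about what acts on these RNAs.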

How the data were processed

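RNA-seq of 6 Huh7 libraries was analysed, 3 with the ITGB5 hairpin and 3 with the control hairpin. The authors deposited whole-number counts per gene in a table named for FPKM. 100% of its values were whole. The S and NC columns were read as ITGB5 and control hairpin, which the labels do not spell out. The aligner, the counter, its strand setting and any poly(A) selection are not stated in the labels or headers used here (the kit keeps strand, per the labels). Gene symbols, lengths and GRCh38 positions are those of the table, and transcript sequences are from GENCODE 29.

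The counts were fitted across all genes with edgeR 4.0.16 (R 4.3.3): filterByExpr, TMM scaling, and the quasi-likelihood test, two-sided, with Benjamini-Hochberg adjustment over 16577 genes and a threshold of 0.05. CPM carries TMM scaling, and FPKM was computed here as CPM per kilobase of the gene length in the table. Counting intervals are exact binomial at 95% and, like the floors of 3 counts, cover counting error only. The fit was checked on simulated counts. MALAT1, NEAT1 and the gene lists were chosen with earlier results of these data known. Named genes were the members, ITGB5, tested genes within 100 kb, up to 4 members per list with the largest change among those that passed (or the 2 most abundant where none did), and, for each member, the 5 genes with the nearest profile among those with a mean CPM of at least 5. Genes named outside that rule are marked in the text. Some genes that the rule takes in are counted but not reported here by name. Where the same symbol stood on more than 1 row, the row with the higher mean was used. Alternatives were RLE factors, library totals, totals of nuclear protein-coding genes, other filters, DESeq2 1.42.0, a replicate block, the data without each library in turn and, added after the data were seen, a robust edgeR fit (2569 genes called), which had been run first.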

Additional observations from a re-analysis of the deposited data

How the results depend on the processing

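MALAT1 and NEAT1 kept their direction in all alternatives run, with log2 changes of -1.12 to -1.06 and of -0.28 to -0.24 when 1 library was left out. No other setting moved either by more than the within-group SD. With the replicate block, edgeR gave -1.09 and -0.26 and called 2303 genes in place of 2495. Same-numbered libraries did not deviate together (correlations 0.028, -0.000125 and -0.0174). The 2495 genes became 1914 with DESeq2 and 1939 to 2183 with 1 library left out. Rises were 1377 of the 2495 and 1255 of 2475 with totals of nuclear protein-coding genes. The 66 long noncoding genes became 23 with DESeq2. The 7 neighbours that passed became 4 with DESeq2 and 4 to 6 with 1 library left out, and the cause was not tested. Per kilobase, the ratio of MALAT1 to NEAT1 was 2.67 and 1.51 in place of 1.04 and 0.584, by construction. With a minimum of 1 CPM, the ranks by decrease became 4 for MALAT1 and 277 for NEAT1, since fewer genes were ranked. The sign of these log2 changes turned in some settings: RN7SL2 with the replicate block (-0.0715), and with 1 library left out RN7SL2 (-0.4404 to 0.4035), RN7SL3 (-0.4762 to 0.3946), AP000944.2 (-0.4319 to 0.0077), DPF2 (-0.0166 to 0.0602), FRMD8 (-0.0755 to 0.0388), KCNK7 (-0.4742 to 0.1486) and TIGD3 (-0.1336 to 0.1407). Counts per gene cannot separate the NEAT1 forms at any depth.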
